A study of Rattus norvegicus with 12 samples.

Results

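Sarcomere and excitation-contraction coupling genes were followed in hind leg muscle of newborn rats whose mothers had eaten 1 of 3 diets. The set was given as 52 genes that encode filament, Z-disc, M-band, chaperone, calcium-handling and triad proteins. They were chosen by name and not by a measured value, though with earlier results of these data known. Of these, 44 had a probe set in the platform annotation used here, each exactly 1, among 18957 probe sets that the authors kept as detected and 11053 genes that these name by a single symbol. The other 8 (Neb, Lmod3, Myom2, Tcap, Xirp1, Casq1, Srl and Pvalb) were not listed under their symbols and were not analysed here. All animals were Wistar rats and all pups were male. Control dams ate a control diet, low protein dams ate a low protein diet, and low protein plus taurine dams ate the low protein diet with 2% (w/v) taurine added to their water, in each case from gestation day 1 onwards. Taurine on the control diet was not part of the groups, so an effect of taurine is seen here on the low protein diet only. Each Affymetrix array held RNA pooled from the muscle of 3 newborn littermates, 4 dams gave 4 arrays a group, and the dam is therefore the replicate. Values are deposited log2 expression values, so a difference of 1 is a doubling, and errors are SD over 4 arrays or the standard error (SE) of a difference from limma, a linear model fitted to all detected probe sets. A gene is said to have risen or fallen where the Benjamini-Hochberg adjusted p over all 18957 probe sets was under 0.05.

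Striated muscle contracts when myosin thick filaments pull actin thin filaments towards the centre of the sarcomere, with titin as the elastic link between Z-disc and M-band. Excitation-contraction coupling is the step before: a voltage change in the T-tubule membrane opens the ryanodine receptor of the sarcoplasmic reticulum, calcium leaves the store and binds the thin filament, and calcium pumps return it. In rodents around birth these structures are still maturing, as triads form and developmental isoforms give way to adult fast and slow ones.

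Promoter windows are shown for the 3 members whose levels rose on both low protein diets and that had exactly 1 window in the source used. Jph1 and Tpm3 also rose on both diets and did not have exactly 1 window, Jph1 having none. The sequences are from RefSeq (build GRCr8) and run 5′ to 3′ on the gene's own strand, from 250 bases before to 50 bases after the transcription start. Capitals mark matches to the E-box letters CANNTG, the core bound by MyoD-family and other basic helix-loop-helix factors.
Smyd1 chr4:104811223-104811522 (minus strand): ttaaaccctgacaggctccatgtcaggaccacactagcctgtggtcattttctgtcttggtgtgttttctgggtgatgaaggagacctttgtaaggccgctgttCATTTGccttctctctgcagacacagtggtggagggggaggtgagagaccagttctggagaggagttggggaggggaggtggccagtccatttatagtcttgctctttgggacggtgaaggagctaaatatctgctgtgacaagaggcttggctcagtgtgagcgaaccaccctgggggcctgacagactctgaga
Unc45b chr10:68342761-68343060 (plus strand): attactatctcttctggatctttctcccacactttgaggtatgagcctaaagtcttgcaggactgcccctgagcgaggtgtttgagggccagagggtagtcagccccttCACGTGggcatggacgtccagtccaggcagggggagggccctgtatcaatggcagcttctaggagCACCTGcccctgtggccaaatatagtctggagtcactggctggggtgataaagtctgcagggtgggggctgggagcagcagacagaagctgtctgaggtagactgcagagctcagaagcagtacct
Atp2a2 chr12:39733269-39733568 (plus strand): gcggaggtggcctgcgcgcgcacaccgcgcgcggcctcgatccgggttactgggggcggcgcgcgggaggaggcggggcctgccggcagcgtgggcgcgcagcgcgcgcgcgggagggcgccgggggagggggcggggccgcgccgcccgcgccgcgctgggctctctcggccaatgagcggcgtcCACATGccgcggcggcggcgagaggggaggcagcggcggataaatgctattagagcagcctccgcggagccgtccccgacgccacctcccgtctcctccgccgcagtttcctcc
The Smyd1 window held 1 match (CATTTG, first base at -146), the Unc45b window 2 (CACGTG at -141 and CACCTG at -76) and the Atp2a2 window 1 (CACATG at -64). Among the 35 members with a window, 28 held an E-box, and 72.1% of all 33469 rat windows did, so the letters are common everywhere. The MCAT letters CATTCC lay in 5 members (Acta1, Cav3, Mybpc2, Tpm1 and Ttn) and in 14.2% of all windows. A match to the MEF2 motif lay in 6 members (Casq2, Cav3, Myoz1, Myoz2, Ttn and Xirp2) and in 3.29% of all windows, and a CArG match in 3 (Acta1, Actc1 and Ldb3) and in 1.64%. Both strands were searched, the patterns may overlap, and a match is a description of letters and not of a binding site. None of the 3 printed windows held an MCAT, MEF2 or CArG match.

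Of a skeletal muscle reference list (myosins, troponins, acetylcholine receptor subunits and myogenic factors, none a member) 19 of 20 genes were among the detected probe sets, with mean levels of 10.29 to 10.67 on the 12 arrays. Of 9 cardiac markers 6 were, with mean levels of 6.70 to 6.99. Levels of different probe sets are not on a common scale, so these means do not rank the tissues. Markers of other tissues differed between arrays. Hepatocyte markers (12 of 20 measured) averaged 10.95 on control 3 and 11.84 on control 4, against 6.81 and 7.07 on controls 1 and 2, 6.94 to 8.31 on the low protein arrays and 6.83 to 7.53 on the taurine arrays. Their summed linear level was 1590.5 to 64216 in controls, 1822 to 6555 with low protein and 1630.1 to 3278 with taurine. Erythroid markers (6 of 10 measured) were also highest on control 4, with summed levels of 6649 to 11623, 6614 to 7268 and 6834 to 8653 in the 3 groups. Immediate early genes (8 of 10 measured), which cells induce within minutes of a stimulus, had summed levels of 1624 to 3439.5, 1787 to 2501 and 3085 to 6073, and were highest on taurine 1 and 2. Adipocyte markers (5 of 7 measured) had summed levels of 1210.4 to 2353, 1285 to 4116 and 822 to 1407, with median differences from control of 0.43 with low protein and -0.44 with taurine. Cartilage markers (7 of 7 measured) were all lower with taurine than in controls, 2 of them past the threshold, with a median of -0.28. Fibroblast markers (7 of 7 measured) held 3 genes that rose with low protein and 1 with taurine, and smooth muscle markers (7 of 7 measured) 1 in each. Of the 6 cardiac markers, 5 were lower than in controls with low protein and 5 with taurine. Past the threshold were 3 with low protein and 0 with taurine, where 11.9% and 3.6% of all probe sets fell. Keratinocyte markers (5 of 6 measured) had summed levels of 436 to 1926, 353 to 5191 and 385 to 3753. No marker is at 0, because the normalization gives every probe set a positive value. Some of these lists differed between the groups. Others, such as the keratinocyte markers, differed mainly between single arrays within groups. Hepatocyte markers did both, with controls 3 and 4 far above controls 1 and 2. All 12 were lower than in controls with low protein (median -2.03) and with taurine (median -2.29), 1 and 0 of them past the threshold. The part of the markers in the results that follow was not tested. Counts of called members and of the pathway lists are also given without controls 3 and 4 and without taurine 1 and 2; for the role groups and lists, and for taurine against low protein, this was chosen after seeing the data.

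The first comparison asks how a low protein diet of the mother is reflected in the newborn's contractile genes. After protein restriction, 7 of the 44 members rose and 0 fell. The 7 were the myosin chaperone Unc45b, the triad protein Jph1, the membrane repair protein Dysf, the assembly factor Smyd1, the slow calcium pump Atp2a2, the slow tropomyosin Tpm3 and the myosin-binding protein Mybph, by 0.18 to 0.38 on the log2 scale. That is 15.9% of the members, while 21.8% of all probe sets rose and 11.9% fell in the same fit, and 35.8% rose among the 6589 probe sets with 1 symbol and a level above the median, as all 44 members are. The count of members was thus no larger than that of genes at large. The members' median difference was 0.07, that of all probe sets 0.07 and that of the named probe sets above the median level 0.15, with 35 members above 0 and 9 below. The arrays of the groups did not overlap for 6 members, or 13.6%. This held for 22.2% of all probe sets and 36.6% of the named probe sets above the median level. Without controls 3 and 4, 3 of 44 members rose (Tpm3, Unc45b and Jph1) and the median over all 44 was -0.02. That is 6.82%, against 10.8% of all probe sets and 17.1% of the named probe sets above the median level. Without taurine 1 and 2, which enter this comparison only through the shared spread, 7 rose. That is 15.9%, against 22.9% and 37.8%.

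The second comparison sets taurine on the low protein diet against the control diet. There 8 of the 44 members were higher than in controls and 0 lower. Jph1, Smyd1, Unc45b, Tpm3 and Atp2a2 were again among them, joined by the calcium release channel Ryr1, the M-band protein Myom1 and the channel adaptor Stac3, by 0.19 to 0.39. This is 18.2% of the members against 10.2% of all probe sets higher and 3.6% lower, and against 17.3% of the named probe sets above the median level. All 44 differences were above 0 in the values as deposited, with a median of 0.22 where that of all probe sets was 0.06 and that of the named probe sets above the median level 0.13. The arrays of the groups did not overlap for 10 members, or 22.7%, against 14.2% of all probe sets. Among the named probe sets above the median level the share was 23.6%, close to that of the members. Both comparisons use the same 4 control arrays, so their values stand side by side and are not independent of each other. Without controls 3 and 4 the count was 2 (4.55%) and the median 0.09. Of all probe sets 2.07% were then higher, and 3.11% of the named ones above the median level. Without taurine 1 and 2 the count was 2 (4.55%) and the median 0.11, beside shares of 4.47% and 7.47%. Tpm3 and Jph1 were the members called each time. Calls thus became fewer among all probe sets as well as among members.

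The calls were sensitive to how arrays were scaled. Shares of all probe sets called under each scaling are not given here, so the counts do not single out the members. A further quantile normalization left 3 called members with low protein and 2 with taurine, centring on array medians 3 and 3, and cyclic loess 1 and 1 (Unc45b and Jph1). Centring on the skeletal muscle reference genes left 2 with low protein (Unc45b, 0.28, and Jph1, 0.21) and 1 with taurine (Jph1, 0.22). That centring moved the median of all probe sets from 0.07 to -0.04 with low protein and from 0.06 to -0.11 with taurine, and the members' medians were then -0.03 and 0.05. The members' low protein median also turned negative (-0.01) when arrays were centred on their medians, while the taurine median was above 0 in all 27 alternatives.

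**Figure D1:**
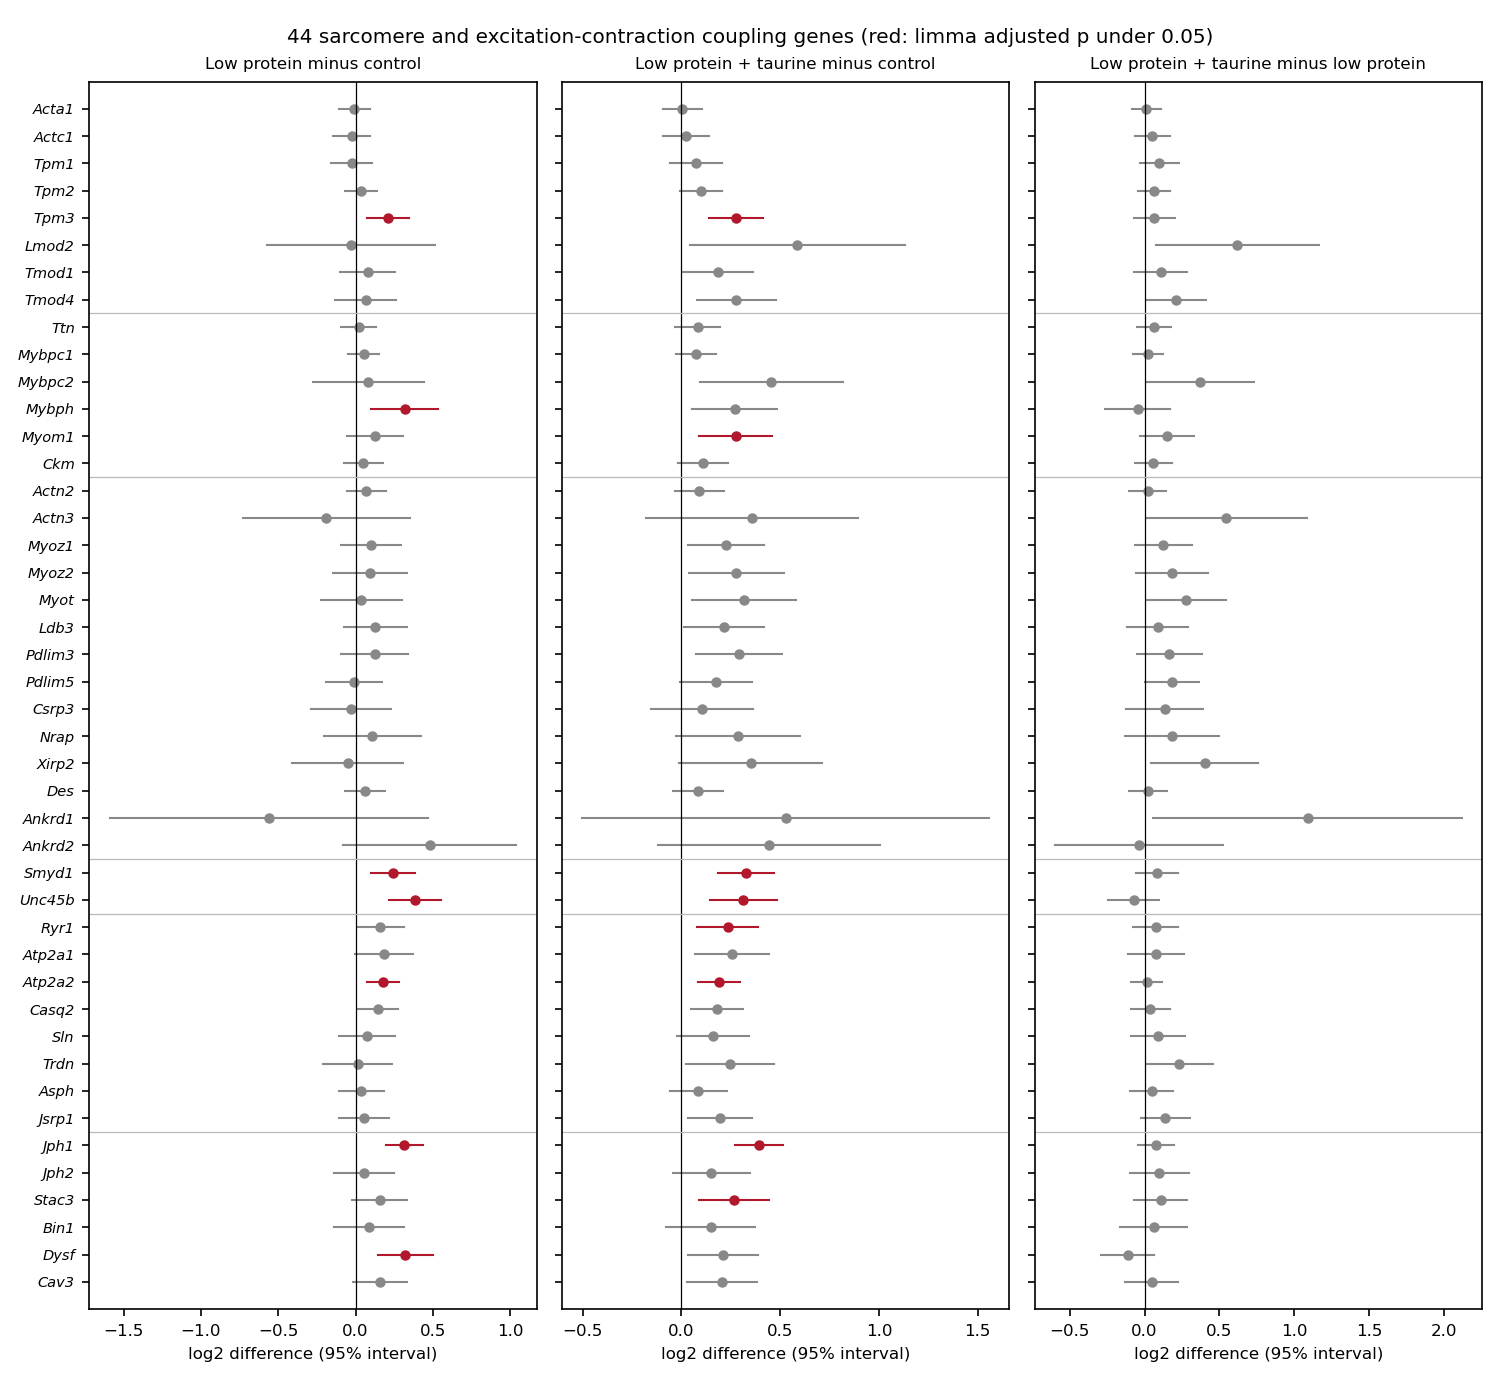
Log2 difference of each of the 44 members (points) with its 95% interval from limma, by role, for low protein minus control, low protein plus taurine minus control, and low protein plus taurine minus low protein. Red points passed an adjusted p of 0.05: 7 in the first panel, 8 in the second and 0 in the third, all above 0.

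Unc45b is the chaperone that folds the myosin motor domain together with the chaperone Hsp90. Its probe set (10736764) read 9.34, 9.38, 9.25 and 9.05 on controls 1 to 4, 9.60, 9.60, 9.80 and 9.56 with low protein, and 9.52, 9.50, 9.65 and 9.61 with taurine. Every array of both low protein diets lay above every control. Mean levels were 9.26 ± 0.15, 9.64 ± 0.11 and 9.57 ± 0.07 (SD, 4 arrays each). The rise was 0.38 (SE 0.08, a 1.31-fold level, limma adjusted p = 0.00693) with low protein and 0.31 (SE 0.08, adjusted p = 0.0258) with taurine. The first call held under all 27 alternatives, with differences of 0.24 to 0.43. The second held under 15 of them. It was lost without taurine 1, taurine 3, taurine 4 or control 3 (0.29 to 0.33, adjusted p 0.0566 to 0.0627), without controls 3 and 4 (0.21) and without taurine 1 and 2 (0.37, adjusted p = 0.0532). It was also lost under each of the 4 further scalings (0.14 to 0.25, adjusted p 0.0563 to 0.214), with the per-gene t-test after Benjamini-Hochberg adjustment (0.0869) and at an adjusted p under 0.01.

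Smyd1, a muscle-specific lysine methyltransferase that in zebrafish and mouse is needed to build myofibrils, is the other assembly factor of the set. Probe set 10863104 read 9.42, 9.56, 9.42 and 9.28 in controls, 9.60, 9.72, 9.75 and 9.58 with low protein and 9.77, 9.80, 9.75 and 9.67 with taurine. The controls again lay below all other arrays, by a narrow margin under low protein (9.56 against 9.58). Smyd1 rose by 0.24 (SE 0.07, adjusted p = 0.0166) and by 0.33 (SE 0.07, adjusted p = 0.0148). The low protein call was lost without low protein 3 (0.21, adjusted p = 0.0502) and without controls 3 and 4 (0.18, adjusted p = 0.106). It was also lost under each of the 4 further scalings (0.11 to 0.16, adjusted p 0.0791 to 0.218). The taurine call was lost without controls 3 and 4 (0.26, adjusted p = 0.065) or without taurine 1 and 2 (0.29, adjusted p = 0.0641). Cyclic loess and centring on the muscle reference ended it too (0.20 and 0.16, adjusted p 0.0521 and 0.0926). Over the 27 alternatives the 2 calls held under 19 and 21. In the fit reported here both assembly factors passed in both comparisons, 2 of 2. Of the named probe sets above the median level 35.8% and 17.3% rose, and 2 genes are too few to set against those shares. Their median deviation from the control mean was even over the taurine arrays, at 0.30 to 0.36.

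Jph1, junctophilin 1, tethers the sarcoplasmic reticulum to the T-tubule at the triad and had the smallest p of any member in both comparisons with control. Its values (probe set 10867081) were 8.89, 8.97, 8.97 and 8.78 in controls, 9.23, 9.22, 9.25 and 9.18 with low protein and 9.30, 9.29, 9.22 and 9.38 with taurine. The gap between the highest control and the lowest array of either low protein diet was wide against the spread within groups. Group means were 8.90 ± 0.09, 9.22 ± 0.03 and 9.30 ± 0.06 (SD, 4 arrays). Jph1 rose by 0.32 (SE 0.06, 1.24-fold, adjusted p = 0.00495) and by 0.39 (SE 0.06, 1.31-fold, adjusted p = 0.00781). The taurine call held under all 27 alternatives (0.22 to 0.42), and the low protein call under 26, all but cyclic loess (0.17, adjusted p = 0.0505). Its relative Jph2, the main cardiac junctophilin, differed by 0.05 and 0.15 and passed in neither comparison.

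Among the other members of the triad and surface membrane, Dysf encodes dysferlin, a calcium-dependent protein of membrane repair. Dysf (probe set 10856797) read 9.51, 9.46, 9.33 and 9.12 in controls, 9.75, 9.66, 9.74 and 9.56 with low protein and 9.60, 9.44, 9.62 and 9.59 with taurine. The low protein arrays stood above all controls, and the taurine arrays overlapped them through taurine 2. Dysf rose by 0.32 with low protein (SE 0.08, adjusted p = 0.0137), a call that held under 21 of the 27 alternatives. Without controls 3 and 4 the difference was 0.19 (adjusted p = 0.0867). The taurine difference was 0.21 (SE 0.08, adjusted p = 0.0944). Taurine against low protein differed by -0.11 (SE 0.08, adjusted p = 0.614), so the unequal calls do not show that the diets differed.
Stac3, the adaptor that brings the voltage-sensing calcium channel to the triad, read 9.89, 10.03, 9.82 and 9.61 in controls, 9.96, 10.08, 10.06 and 9.88 with low protein and 10.04, 10.18, 10.14 and 10.04 with taurine. The taurine arrays lay just above the highest control. It rose with taurine by 0.27 (SE 0.08, adjusted p = 0.0497), at the edge of the threshold, and leaving out any single array but control 2 ended that call (0.19 to 0.29, adjusted p 0.0551 to 0.105). Cav3 and Bin1, which shape the T-tubule membrane, differed by 0.16 and 0.09 with low protein and by 0.21 and 0.15 with taurine, and neither passed.

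**Figure D2:**
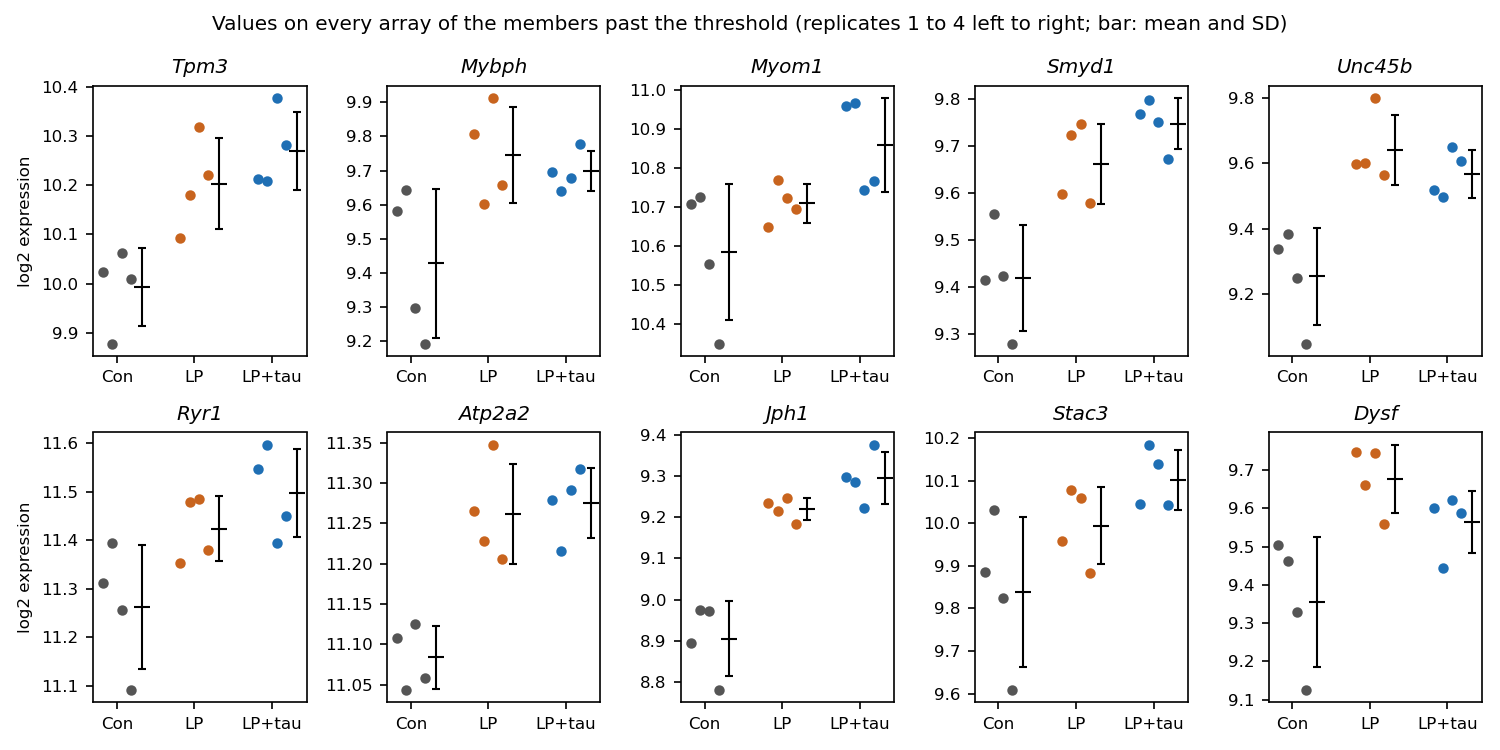
Log2 level on every array for the 10 members past the threshold in at least 1 comparison, with controls (Con), low protein (LP) and low protein plus taurine (LP+tau) side by side; bars give the mean and SD of 4 arrays and each panel has its own axis. For Jph1, Unc45b, Smyd1, Tpm3 and Atp2a2 all 8 arrays of the low protein diets lay above all 4 controls.

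In the calcium store and its channels, Ryr1 is the release channel itself. Ryr1 (probe set 10720308) read 11.31, 11.39, 11.26 and 11.09 in controls, 11.35, 11.48, 11.48 and 11.38 with low protein and 11.55, 11.60, 11.39 and 11.45 with taurine. Low protein arrays overlapped the controls, and taurine 3 lay only a little above control 2. The difference was 0.16 (SE 0.07, adjusted p = 0.0911) with low protein, and Ryr1 rose by 0.23 (SE 0.07, adjusted p = 0.0462) with taurine. That call ended without any single array other than taurine 3 or control 2 (0.18 to 0.25, adjusted p 0.0537 to 0.112).

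Atp2a2 encodes the calcium pump of slow and cardiac muscle and Atp2a1 that of fast fibres. Atp2a2 (probe set 10758555) read 11.11, 11.04, 11.13 and 11.06 in controls, 11.26, 11.23, 11.35 and 11.21 with low protein and 11.28, 11.22, 11.29 and 11.32 with taurine. The controls lay below all arrays of both low protein diets, and the spread within groups was among the smallest of all members. Atp2a2 rose by 0.18 (SE 0.05, adjusted p = 0.0181) and by 0.19 (SE 0.05, adjusted p = 0.0274). The low protein call was lost without low protein 3 (0.15, adjusted p = 0.0554) and the taurine call without taurine 1, taurine 3, taurine 4 or control 3 (0.18 to 0.21, adjusted p 0.0544 to 0.068). With arrays centred on the muscle reference genes the 2 differences were 0.07 and 0.02. Over the 27 alternatives the 2 calls held under 21 and 15.
Atp2a1 read 12.13, 12.22, 12.03 and 11.90 in controls, 12.30, 12.18, 12.32 and 12.20 with low protein and 12.47, 12.46, 12.16 and 12.23 with taurine. Its groups overlapped, and differences of 0.18 (SE 0.09, adjusted p = 0.113) and 0.26 (SE 0.09, adjusted p = 0.0625) did not pass, with 95% intervals of -0.0046 to 0.37 and 0.07 to 0.44.

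Casq2 is a calcium-binding protein of the store in cardiac, slow and developing muscle. Its values were 12.17, 12.23, 12.11 and 11.95 in controls, 12.26, 12.21, 12.31 and 12.25 with low protein and 12.28, 12.37, 12.28 and 12.26 with taurine. The taurine arrays did not overlap the controls, yet the differences of 0.14 (SE 0.06, adjusted p = 0.0809) and 0.18 (SE 0.06, adjusted p = 0.0611) did not pass. Triadin, encoded by Trdn, anchors calsequestrin to the release channel, and Jsrp1 encodes another junctional protein that binds the voltage sensor.
Trdn read 11.07, 11.12, 10.93 and 10.61 in controls, 10.92, 11.02, 10.88 and 10.97 with low protein and 11.34, 11.26, 11.03 and 11.09 with taurine. Jsrp1 read 9.00, 9.09, 8.98 and 8.74 in controls, 8.93, 9.00, 9.09 and 9.02 with low protein and 9.24, 9.22, 9.10 and 9.04 with taurine. For both, control 4 was the lowest array and taurine 1 the highest. Differences with low protein were 0.01 and 0.06, and with taurine 0.25 (adjusted p = 0.114) and 0.19 (adjusted p = 0.0914). Sln, a small inhibitor of the calcium pump, and Asph, whose locus encodes junctin, differed by 0.04 to 0.16 in both comparisons and passed in neither. Of the 8 measured genes of calcium release, uptake and storage, 1 rose with low protein and 2 with taurine, or 12.5% and 25.0%. The shares were 21.8% and 10.2% of all probe sets, and 35.8% and 17.3% of the named ones above the median level. Without controls 3 and 4 both counts were 0, and without taurine 1 and 2 they were 1 and 0. Among all probe sets the shares were then 10.8% and 2.07%, and 22.9% and 4.47%.

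Of the 8 measured thin filament genes 1 rose in each comparison with control, or 12.5%. The shares were 21.8% and 10.2% of all probe sets, and 35.8% and 17.3% of the named ones above the median level. Their median difference was 0.01 with low protein and 0.14 with taurine, where all 8 were above 0. The counts stayed at 1 without controls 3 and 4 or taurine 1 and 2. Among all probe sets the shares were then 10.8% and 2.07%, and 22.9% and 4.47%. Acta1, skeletal alpha-actin, read 13.71, 13.72, 13.66 and 13.61 in controls, 13.64, 13.69, 13.66 and 13.69 with low protein and 13.70, 13.73, 13.66 and 13.63 with taurine. All arrays lay within 0.12 of each other and close to the highest value in the whole table (13.88). The differences were -0.01 (95% interval -0.11 to 0.09) and 0.00 (-0.09 to 0.10).
Tpm3, a tropomyosin of slow fibres and of non-muscle cells, was the 1 thin filament member that rose in both comparisons. Tpm3 (probe set 10816886) read 10.02, 9.88, 10.06 and 10.01 in controls, 10.09, 10.18, 10.32 and 10.22 with low protein and 10.21, 10.21, 10.38 and 10.28 with taurine. The controls lay below all arrays of both low protein diets, low protein 1 being close to control 3. Tpm3 rose by 0.21 (SE 0.06, adjusted p = 0.0257) and by 0.28 (SE 0.06, adjusted p = 0.0204). The low protein call was lost without low protein 3, low protein 4 or control 2 (0.17 to 0.20, adjusted p 0.0516 to 0.0767), and the taurine call held without each array in turn. Under each of the 4 further scalings the low protein call was lost (0.09 to 0.14, adjusted p 0.133 to 0.426). Quantile normalization, cyclic loess and reference centring ended the taurine call (0.11 to 0.21, adjusted p 0.0683 to 0.398). Over the 27 alternatives the 2 calls held under 18 and 22. Tpm1 and Tpm2, the other tropomyosins of striated muscle, differed by -0.03 and 0.04 with low protein and by 0.07 and 0.10 with taurine, and did not pass. Actc1, the cardiac alpha-actin that developing skeletal muscle also makes, differed by -0.03 and 0.02.

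Lmod2, a leiomodin that nucleates actin, and the tropomodulins Tmod1 and Tmod4, which cap the pointed ends of thin filaments, set filament length. Lmod2 read 9.97, 10.03, 9.38 and 9.27 in controls, 9.71, 9.54, 9.69 and 9.59 with low protein and 10.38, 11.00, 9.59 and 10.02 with taurine. Taurine 1 and 2 were the highest arrays and controls 3 and 4 the lowest, and taurine 3 and 4 fell inside the control range. The taurine difference of 0.59 (SE 0.25, adjusted p = 0.118) did not pass, and that of low protein was -0.03 (SE 0.25).
Tmod4, the skeletal form, read 11.62, 11.66, 11.46 and 11.19 in controls, 11.53, 11.57, 11.57 and 11.52 with low protein and 11.83, 11.87, 11.63 and 11.71 with taurine. Tmod1 read 11.09, 11.20, 11.04 and 10.80 in controls, 11.14, 11.10, 11.15 and 11.05 with low protein and 11.32, 11.31, 11.11 and 11.14 with taurine. Low protein arrays of both genes sat within the control range, and the taurine arrays overlapped it at its top. Tmod4 differed by 0.06 and 0.28 (adjusted p = 0.0609 for the latter) and Tmod1 by 0.08 and 0.19 (adjusted p = 0.125).

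Titin, encoded by Ttn, spans from Z-disc to M-band. It read 12.76, 12.70, 12.65 and 12.55 in controls, 12.63, 12.74, 12.68 and 12.70 with low protein and 12.78, 12.76, 12.72 and 12.73 with taurine. Low protein arrays lay within the control range, and the taurine arrays overlapped it at its top. The differences were 0.02 (95% interval -0.09 to 0.13) and 0.08 (-0.03 to 0.20).
Among thick filament genes Mybph, a protein related to myosin-binding protein C, read 9.58, 9.64, 9.30 and 9.19 in controls, 9.81, 9.60, 9.91 and 9.66 with low protein and 9.70, 9.64, 9.68 and 9.78 with taurine. Low protein 2 lay below control 2, so the groups overlapped, and the low controls were 3 and 4. Mybph (probe set 10764079) rose with low protein by 0.32 (SE 0.10, adjusted p = 0.0298). The call was lost without low protein 1, low protein 3, control 3 or control 4 (0.24 to 0.30, adjusted p 0.0629 to 0.086), and without controls 3 and 4 the difference was 0.13. Over the 27 alternatives this call held under 15. The taurine difference was 0.27 (SE 0.10, adjusted p = 0.0799).

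Myom1, myomesin 1, cross-links myosin at the M-band. Its values (probe set 10925991) were 10.71, 10.73, 10.55 and 10.35 in controls, 10.65, 10.77, 10.72 and 10.69 with low protein and 10.96, 10.97, 10.74 and 10.77 with taurine. Taurine 3 lay only just above the highest control. Myom1 rose with taurine by 0.27 (SE 0.08, adjusted p = 0.0486), a call that ended without any single array but control 2 (0.20 to 0.32, adjusted p 0.0506 to 0.125), and its low protein difference was 0.13 (adjusted p = 0.252).
Mybpc2, the fast-fibre myosin-binding protein C, read 8.21, 8.15, 8.28 and 8.10 in controls, 7.94, 8.64, 8.21 and 8.27 with low protein and 8.88, 9.01, 8.42 and 8.24 with taurine. Taurine 1 and 2 stood clear of all others, and taurine 4 lay within the controls. The differences of 0.08 (SE 0.17) and 0.46 (SE 0.17, adjusted p = 0.0783) did not pass. Mybpc1, its slow relative, and Ckm, the muscle creatine kinase, differed by 0.05 each with low protein and by 0.08 and 0.11 with taurine.

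No Z-disc or cytoskeletal member passed in either comparison, 0 of 14 measured, where 21.8% and 10.2% of all probe sets rose. The median difference of these 14 was 0.06 with low protein and 0.28 with taurine. The taurine arrays split: taurine 1 and 2 had median deviations of 0.37 and 0.42 from the control mean, taurine 3 and 4 of 0.05 and 0.06. Myot, the Z-disc protein myotilin, shows it, with 11.63, 11.58, 11.40 and 11.27 in controls, 11.60, 11.51, 11.53 and 11.40 with low protein and 11.97, 12.08, 11.49 and 11.62 with taurine. Taurine 1 and 2 were above every other array and taurine 3 and 4 inside the control range. The difference from control was 0.32 (SE 0.12, adjusted p = 0.0902).

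Pdlim3 and Ldb3 encode PDZ-LIM proteins that bind alpha-actinin at the Z-disc. Pdlim3 read 11.42, 11.40, 11.19 and 11.03 in controls, 11.39, 11.40, 11.37 and 11.36 with low protein and 11.62, 11.79, 11.38 and 11.41 with taurine. Ldb3 read 11.24, 11.42, 11.16 and 11.03 in controls, 11.35, 11.36, 11.43 and 11.22 with low protein and 11.53, 11.60, 11.29 and 11.27 with taurine. For both, control 4 was lowest and taurine 2 highest, and the groups overlapped. Differences were 0.12 and 0.13 with low protein, and 0.29 (adjusted p = 0.0663) and 0.22 (adjusted p = 0.122) with taurine.

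Xirp2, an actin-binding protein with Xin repeats, read 9.68, 9.46, 9.19 and 8.93 in controls, 9.12, 9.40, 9.12 and 9.41 with low protein and 9.69, 10.07, 9.45 and 9.44 with taurine. Low protein arrays fell in the middle of the controls, and all taurine arrays lay above all low protein arrays. The differences from control were -0.05 (SE 0.17) and 0.35 (SE 0.17, adjusted p = 0.151).
Ankrd1 and Ankrd2 encode ankyrin-repeat proteins that bind titin and respond to stretch and injury in rodent muscle. Ankrd1 read 9.47, 9.16, 8.22 and 8.16 in controls, 8.28, 8.49, 7.84 and 8.16 with low protein and 10.21, 10.37, 8.11 and 8.42 with taurine. Its spread, 0.79 within groups, was the widest of the 44 members, with controls 1 and 2 and taurine 1 and 2 high and the other 8 arrays low. Differences were -0.56 (SE 0.48) and 0.53 (SE 0.48), with 95% intervals of -1.59 to 0.47 and -0.50 to 1.56.
Ankrd2 did not follow that order. It read 9.98, 8.72, 9.40 and 9.23 in controls, 9.44, 9.87, 9.77 and 10.16 with low protein and 9.86, 9.36, 10.37 and 9.52 with taurine. The groups overlapped widely, and the differences of 0.48 (SE 0.26, adjusted p = 0.159) and 0.44 (SE 0.26, adjusted p = 0.235) did not pass. The remaining Z-disc members (Actn2, Actn3, Myoz1, Myoz2, Pdlim5, Csrp3, Nrap and Des) differed by -0.19 to 0.11 with low protein and by 0.08 to 0.36 with taurine, Actn3, the fast alpha-actinin, at both -0.19 and 0.36.

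**Figure D3:**
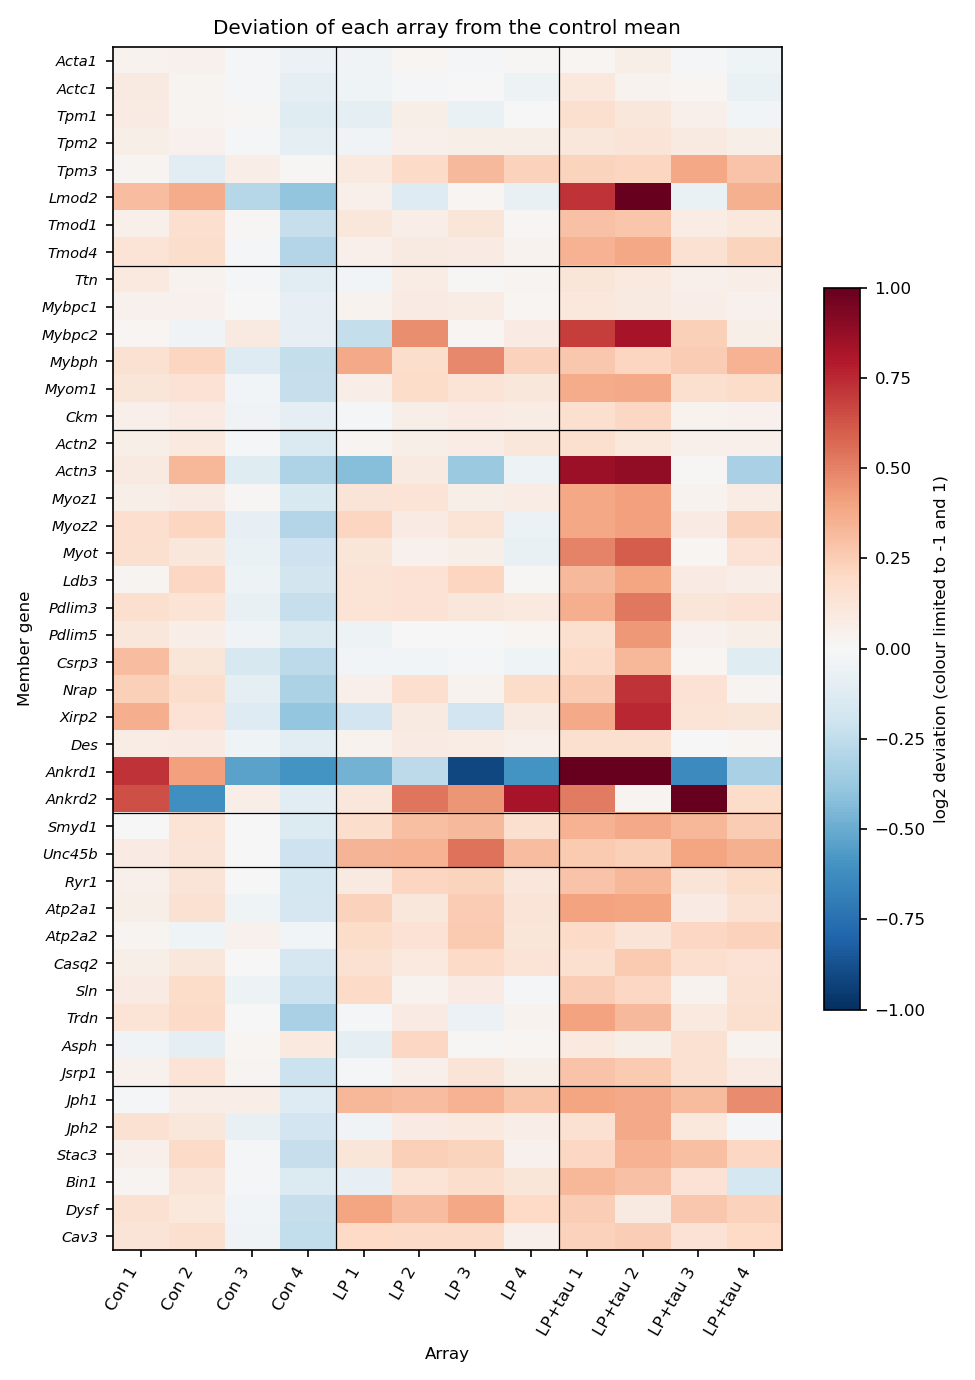
Deviation of each of the 12 arrays from the control mean, in log2, for the 44 members (rows of genes grouped by role; colour limited to -1 and 1). Control 4 is low for most genes, taurine 1 and 2 are high, and the strongest colours belong to Ankrd1, Lmod2 and, on taurine 3, Ankrd2.

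The order of arrays within groups was shared by many members. Control 4 was the lowest control for 40 of 44 members, and for 41.5% of all probe sets. Taurine 2 was the highest taurine array for 24 and taurine 1 for 12, against 24.3% and 25.4% of all probe sets. The members' median deviations from the control mean were 0.08, 0.12, -0.02 and -0.18 on controls 1 to 4, 0.05 to 0.09 on the low protein arrays and 0.27, 0.31, 0.10 and 0.12 on taurine 1 to 4. Control 4 is also the array with the highest hepatocyte and erythroid markers, and taurine 1 and 2 those with the highest immediate early genes. In RNA from whole muscle, fewer fibres in a sample and less of a transcript per fibre cannot be told apart. The median within-group SD was 0.12 for the members and 0.11 for all probe sets, and ranged from 0.04 (Acta1) to 0.79 (Ankrd1).

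**Figure D4:**
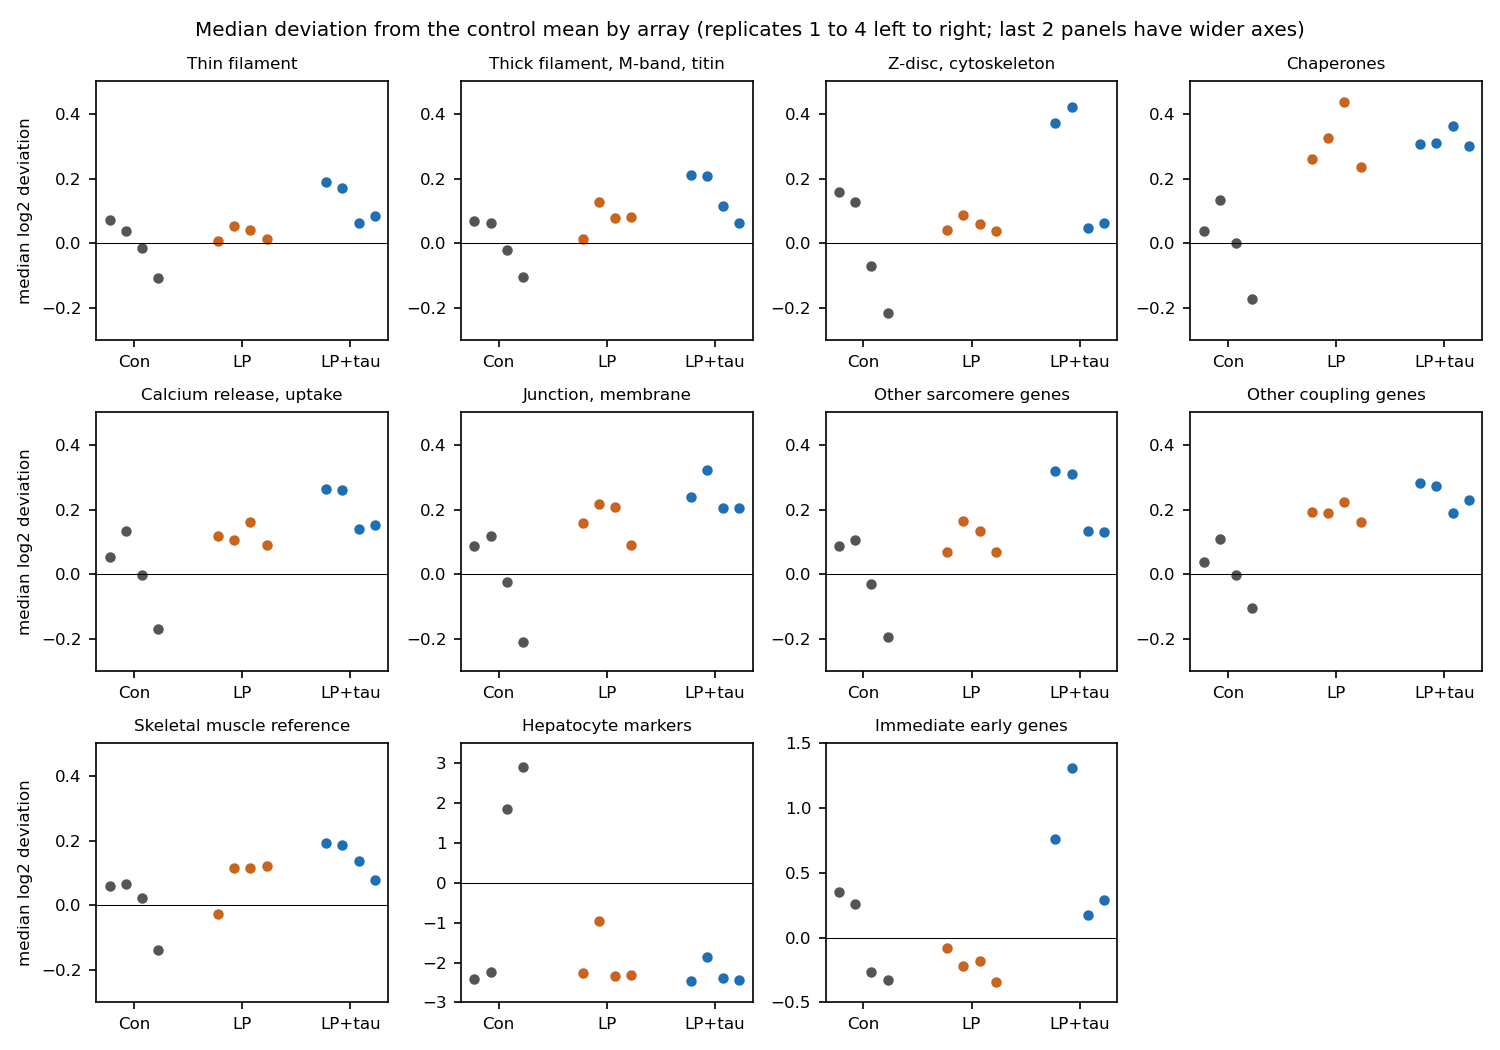
Median log2 deviation from the control mean on each array, for the role groups of the members, other genes of the pathway and marker lists. Arrays are in order of replicate within control (Con), low protein (LP) and low protein plus taurine (LP+tau). The last 2 panels have wider axes. The Z-disc group separates taurine 1 and 2 (0.37 and 0.42) from taurine 3 and 4 (0.05 and 0.06), while the assembly factors are even (0.30 to 0.36).

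The third comparison asks what taurine adds on the low protein diet. No member passed (0 of 44, limma), and 0% of all 18957 probe sets did, the lowest adjusted p of a member being 0.428. At an unadjusted p under 0.05, 9 members were higher and 0 lower, or 20.5%, against 5.29% of all probe sets higher and 5.51% lower. The t-test with Benjamini-Hochberg adjustment also called 0. In total 40 differences were above 0 and 4 below, with a median of 0.09 where that of all probe sets was 0.00. The arrays of the groups did not overlap for 4 members, Tmod4, Pdlim5, Xirp2 and Trdn, or 9.09%. This held for 3.35% of all probe sets and 1.55% of the named ones above the median level. With taurine 1 and 2 left out, the shares were 9.09%, 9.63% and 5.21%. Without taurine 1 and 2, 0 members had an unadjusted p under 0.05, 29 of 44 differences were above 0, and the median was 0.03. Of all probe sets 3.25% were then higher at that threshold, with a median of 0.01. Markers differed between these groups too: all 8 immediate early genes were higher with taurine (median 0.87), 6 of them without overlap, and all 5 adipocyte markers were lower (median -1.04). Their part in the members' differences was not tested.
The largest of these differences was that of Ankrd1, at 1.09 (SE 0.48, 95% interval 0.06 to 2.12, adjusted p = 0.451), with taurine 1 and 2 far above the other taurine arrays. Lmod2 differed by 0.62 (SE 0.25, adjusted p = 0.428), Xirp2 by 0.40 (SE 0.17, adjusted p = 0.433) and Mybpc2 by 0.37 (SE 0.17, adjusted p = 0.452). Tmod4, at 0.21 (SE 0.09), and Trdn, at 0.23 (SE 0.10), were higher on all 4 taurine arrays than on all 4 low protein arrays. Members that had risen against control on both diets did not pass between them. Jph1 differed by 0.08 (95% interval -0.04 to 0.20), Smyd1 by 0.09 (-0.06 to 0.23) and Tpm3 by 0.07 (-0.07 to 0.20). Unc45b differed by -0.07 (-0.24 to 0.10) and Atp2a2 by 0.01 (-0.09 to 0.12). These intervals do not show equal levels under the diets.

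**Figure D5:**
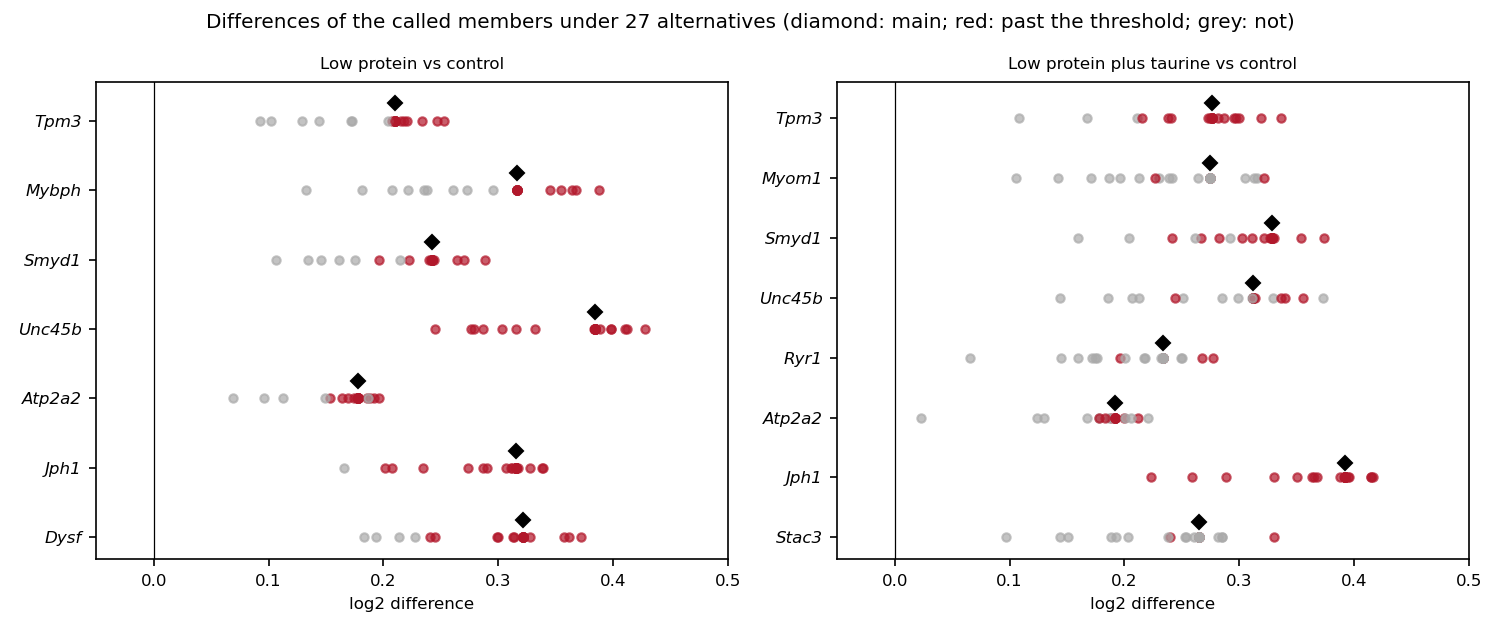
Log2 difference from control of each called member in the fit reported here (diamond) and under 27 alternative settings (dots; red where the adjusted p passed, grey where not). All differences stay above 0; Jph1 passes in 26 and 27 settings, Unc45b in 27 and 15, and Myom1, Stac3 and Ryr1 in 6, 6 and 7.

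Other genes of the same machinery were counted from lists that hold no member. Of 30 measured genes of excitation-contraction coupling (channels, calcium binders, kinases and membrane-shaping proteins), 12 rose with low protein and 16 with taurine, and 0 fell. These are 40.0% and 53.3%, against 21.8% and 10.2% of all probe sets and 35.8% and 17.3% of the named probe sets above the median level. Median differences were 0.17 and 0.24, beside 0.15 and 0.13 for the latter. Without controls 3 and 4 the counts were 7 and 4, and without taurine 1 and 2 they were 13 and 6. As shares of the list, these were 23.3% and 13.3%, and 43.3% and 20%. Beside them stood 10.8% and 2.07%, and 22.9% and 4.47%, of all probe sets. For the named probe sets above the median level, the shares were 17.1% and 3.11%, and 37.8% and 7.47%. With low protein the smallest p belonged to Clcn1, the muscle chloride channel (0.40, SE 0.06, adjusted p = 0.00417), Hrc, a calcium-binding protein of the store lumen (0.33, SE 0.05, adjusted p = 0.00426), and Camk2g, a calmodulin-dependent kinase (0.34, SE 0.06, adjusted p = 0.00474). With taurine they were Tmem38b, a cation channel of the store membrane (0.42, SE 0.06), Hrc (0.35, SE 0.05) and Clcn1 (0.34, SE 0.06), with adjusted p of 0.00781, 0.00781 and 0.00814. The arrays of these genes did not overlap with the controls in either comparison.
Of 32 measured further sarcomere genes, 5 rose with low protein and 6 with taurine, and 0 fell. These are 15.6% and 18.8%, against the same background of 21.8% and 10.2%. The named probe sets above the median level gave 35.8% and 17.3%. Without controls 3 and 4 the counts were 1 and 0, and without taurine 1 and 2 they were 6 and 0. These are 3.12% and 0%, and 18.8% and 0%. Among all probe sets the shares were then 10.8% and 2.07%, and 22.9% and 4.47%. Fhl3, a LIM-domain protein, rose by 0.35 (SE 0.07, adjusted p = 0.00709) and 0.34 (SE 0.07, adjusted p = 0.0168), and Klhl40, which stabilises thin filament proteins, by 0.25 (SE 0.08, adjusted p = 0.0334) and 0.28 (SE 0.08, adjusted p = 0.0378). Pdlim7, a PDZ-LIM protein, rose by 0.31 (SE 0.08, adjusted p = 0.0181) and 0.29 (SE 0.08, adjusted p = 0.0428), and Capzb, the capping protein of the barbed end, with taurine by 0.28 (SE 0.06, adjusted p = 0.0179). Against low protein alone the smallest p in these lists were those of Homer1 (0.15), Sypl2 (0.23) and Rcan1 (0.19), and of Hsp90aa1 (0.20), Capzb (0.15) and Pdlim1 (0.32), none of which passed (adjusted p 0.383 to 0.504).

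The authors' deposited table of probe sets chosen by them held 2 of the 44 members, Jph1 and Unc45b. In the authors' deposited table Jph1 has ratios to control of 1.24 with low protein and 1.31 with taurine, and Unc45b of 1.31 and 1.24. The authors' selection was made on these same arrays and adds no separate evidence. For low protein against control the authors' deposited table gives p = 4.55e-11 for Jph1 and 2.63e-05 for Unc45b, where an equal-variance t-test on the deposited log2 values gave 0.000589 and 0.00566. Read from a normal in place of a t distribution, the same statistics matched the p-values of the authors' deposited table within 1% for 716 of the 716 probe sets whose deposited p was above 1e-12, and from the t distribution for 0. With the t distribution, Bonferroni adjustment, the correction their file descriptions name, called 0 members in each comparison, where limma called 7, 8 and 0. The unadjusted t-test gave 6, 11 and 3 higher members. Its shares of all probe sets are not given here, so these counts do not single out the members. At an unadjusted limma p under 0.05, 20.5%, 54.5% and 20.5% of the members were higher. Of all probe sets 30.5%, 24.8% and 5.29% were.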

How the data were processed

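RNA from newborn hind leg muscle, pooled by dam, was hybridised to 12 Affymetrix arrays, 4 for each of 3 diets. The deposited files hold log2 expression for each probe set, which the authors made by RMA in R 3.2.2, per the submitters' processing notes; a genome build is not given in the sources used here. Of 29214 probe sets the authors kept 18957 as detected, per the deposited descriptions. In a further deposited table the authors give p-values, linear group means (intensity) and the ratio of these means for probe sets they chose with SAM and a Bonferroni-corrected test; it served only to look up members and, after seeing the data, to compare its p-values with a t and a normal distribution. No background signal was used here, and the number of arrays limits the precision.

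Symbols came from the platform annotation, in which 11721 detected probe sets have 1 symbol, 141 have several and 7095 are not listed. Each measured member has 1 probe set, which cannot separate isoforms. The linear model of limma 3.58.1 (R 4.3.3; lmFit and eBayes) was fitted to all 18957 probe sets with a mean for each diet. Tests were two-sided, with Benjamini-Hochberg adjustment over every probe set and a threshold of 0.05. The members, gene lists, tests and alternatives were chosen with earlier results of these data known. Values on every array are given for the 2 members with the smallest p in each role group and comparison, for members past the threshold in more than 1 comparison, and for Ttn, Acta1, Ryr1 and Atp2a1. From the pathway lists the 3 genes with the smallest p per comparison are named. Alternatives were the replicate number as a block, the pair of groups alone, trend and robust eBayes, 4 further scalings, array weights, 2 filters, 2 thresholds, a per-probe-set test as the descriptions name it, and leaving out single arrays or pairs of arrays.

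Replicate numbers stand for different dams: among 12 pairs of arrays with the same number, deviations from the group means had a correlation over 0.1 in 3, so the numbers were not taken as pairs. Promoter windows are RefSeq sequences of 300 bases and were found for 35 of the 44 members.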

Additional observations from a re-analysis of the deposited data

Results flagged for a closer look

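Of 78 groups of 4 arrays examined (26 members in 3 groups), 2 held an array whose gap to the nearest other, divided by the range of the group, was above Dixon's critical value for 4 values. Chance gives about 1 in 20. Unc45b on low protein 3 was 9.80, above the next array at 9.60, with a gap of 0.846 of the range. Leaving that array out did not end the Unc45b call. Casq2 on taurine 2 was 12.37, above the next array at 12.28, with a gap of 0.838 of the range.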

How the results depend on the processing

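Counts of called members, 7 with low protein and 8 with taurine against control, depended on the processing, while 0 members were called lower and 0 were called in taurine against low protein under all 27 alternatives. Low protein gave 3 after quantile normalization, 3 after median centring, 1 after cyclic loess, 2 after centring on the muscle reference, 2 at an adjusted p under 0.01, 3 with the methods' t-test after Benjamini-Hochberg adjustment and 3 without controls 3 and 4. Taurine gave, in the same order, 2, 3, 1, 1, 1, 2 and 2, and 4 with only the 2 groups compared, 5 with all probe sets, 20 at an adjusted p under 0.1 and 2 without taurine 1 and 2. Leaving out 1 array gave 3 (without low protein 3) to 9 (without control 2) with low protein, and 3 (without taurine 1, taurine 4 or control 3) to 12 (without control 2) with taurine. The cause of these changes was not tested. Shares of all probe sets called higher changed too, from 21.8% and 10.2% to 10.8% and 2.07% without controls 3 and 4. Without taurine 1 and 2 they were 22.9% and 4.47%. For the other alternatives, such as the looser threshold, shares of all probe sets are not given here. The member counts under them therefore do not single out the members. Since the replicate numbers mark different dams, the replicate block gave 7 and 10 and is not read further. The next counts cover the 26 members whose values are given on every array. For their 15 called values, 405 alternatives kept 266 calls, lost 139 and reversed 0. For their 63 uncalled values, 36 of 1701 passed and 73 changed sign. Uncalled values of the other members are not in these counts. The mean over several probe sets of a gene was not run, as each member has 1. With 4 arrays a group, differences of the size of the SE quoted cannot be told from 0.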
